A study of Mus musculus with 6 samples.

Results

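*Txnip*, 4 *Arrdc* genes and *Mlxip* were followed in leukemia cells from mice given AG636, an inhibitor of the pyrimidine synthesis enzyme DHODH, and from mice given vehicle. The genes are the alpha-arrestins *Txnip*, *Arrdc1*, *Arrdc2*, *Arrdc3* and *Arrdc4* together with *Mlxip*, which encodes the transcription factor MondoA. They were selected by symbol, with earlier results of these data known. All 6 were present among the 54838 genes of the count table and among the 11092 genes that had enough counts to be tested. The cells are I1DN, a murine AML on a C57BL/6 background that carries IDH1R132H, DNMT3AR882H and NrasG12D, and both groups share this genotype. The oncogenes were introduced together into hematopoietic cells of fetal liver, and banked leukemia cells were then grown in congenic Ptprca recipients after sublethal irradiation, so host blood cells can remain in these animals. There were 3 vehicle-treated and 3 AG636-treated recipients, the latter dosed orally at 100 mg/kg b.i.d. The labels give neither the age of the animals nor the duration of treatment, and the study's text and its supplementary list of changed genes differ in the duration they give for this RNA-seq comparison. Leukemia cells were sorted from bone marrow and spleen, and the study describes the sorted cells as cKit+CD11b- in one place and as cKit-high and CD11b-low in another.

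Alpha-arrestins are membrane-associated adaptors that bring ubiquitin ligases of the NEDD4 family to receptors and transporters, which are then taken up from the cell surface. TXNIP also binds thioredoxin and limits glucose uptake, and its transcript is one of the most sensitive readouts of cellular sugar phosphate levels. MondoA senses these sugar phosphates together with its partner MLX, enters the nucleus and activates *Txnip* and *Arrdc4* through paired E-boxes in their promoters. Control by MondoA is well established for *Txnip* and *Arrdc4*, and is less settled for the other *Arrdc* genes.

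The promoters of *Txnip* and *Arrdc4* are shown because these were the only 2 of the 6 genes that passed the test. Each sequence is the 250 bases before the transcript start in RefSeq (GRCm38.p6), 5′ to 3′ on the strand of the gene, at chr3:96557707-96557956 on the plus strand for *Txnip* and at chr7:68749239-68749488 on the minus strand for *Arrdc4*. Capitals mark matches to CCAAT on either strand, to the E-box CACGTG, and to a pair of boxes 5 bases apart that each differ from CACGTG by at most 1 base.
Txnip: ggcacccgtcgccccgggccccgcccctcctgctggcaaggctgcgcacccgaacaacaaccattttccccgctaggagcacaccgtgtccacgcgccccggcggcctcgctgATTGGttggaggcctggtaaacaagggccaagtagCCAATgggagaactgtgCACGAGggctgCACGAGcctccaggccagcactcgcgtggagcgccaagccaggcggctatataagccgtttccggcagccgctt
Arrdc4: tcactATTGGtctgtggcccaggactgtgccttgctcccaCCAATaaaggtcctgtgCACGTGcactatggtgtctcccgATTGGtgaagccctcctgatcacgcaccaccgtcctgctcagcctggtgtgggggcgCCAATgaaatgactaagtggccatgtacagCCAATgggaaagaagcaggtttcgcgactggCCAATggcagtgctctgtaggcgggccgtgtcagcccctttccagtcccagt
The *Txnip* window held 1 such pair of boxes, from 85 to 69 bases before the start, in which both boxes read CACGAG. A pair of this kind was present in 0.329% of 32851 promoter windows of the same length, and a pair without mismatch was present in 0 of them. The mismatch was allowed only after the *Txnip* promoter had been read. The *Arrdc4* window held a single CACGTG, from 193 to 188 bases before the start, which 6.02% of windows contained. It also held 6 matches to CCAAT, the box bound by NF-Y, and 0.0578% of windows had as many. *Txnip* and *Mlxip* had 2 matches to CCAAT each and *Arrdc2* had 3. At least 2 were present in 10.1% of windows and at least 3 in 2.79%. Of the 3 starts of *Arrdc3*, 2 had 1 match and the other none, and *Arrdc1* had none of these motifs. These letters describe the windows only, and binding was not measured.

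**Figure D1:**
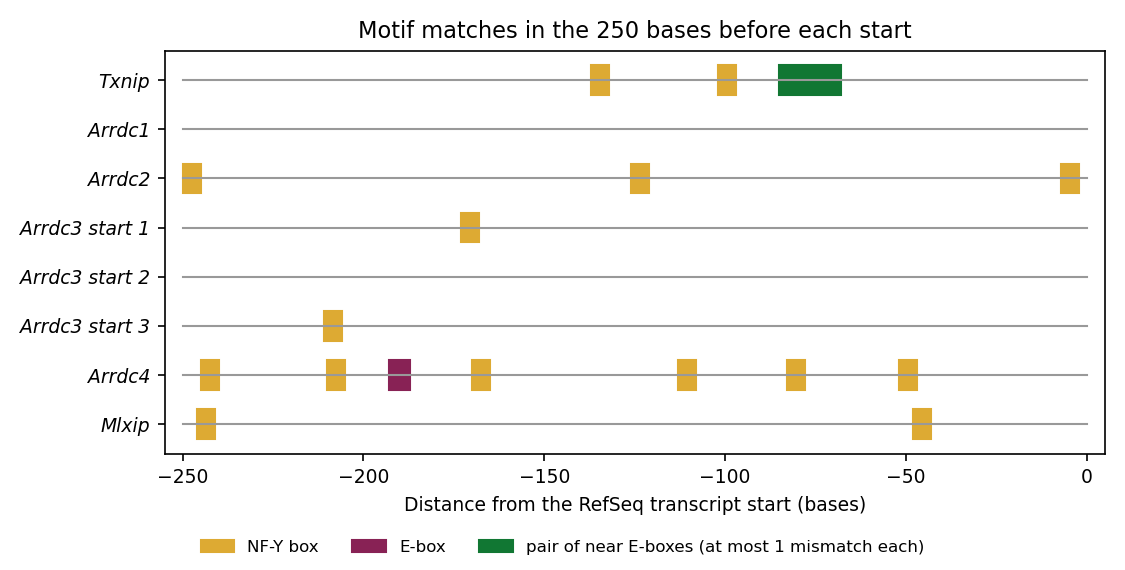
Motif matches in the 250 bases before each RefSeq transcript start of the 6 genes, with the distance from the start in bases on the x axis and 1 line per start. Yellow boxes are NF-Y boxes, the purple box is an exact E-box and the green box is a pair of near E-boxes. *Arrdc4* has 6 NF-Y boxes and *Txnip* alone has the pair of near E-boxes.

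Libraries captured the 3′ end of polyadenylated transcripts and held between 4634963 and 7906589 counts assigned to genes. Values are given as CPM, which relate a gene's count to the TMM-scaled total of its library, and 3 counts correspond to between 0.392 and 0.637 CPM. The test was the quasi-likelihood test of edgeR, and a gene was called at a Benjamini-Hochberg adjusted p under 0.05 over all genes tested. By this rule 21.3% of all genes were called, 10.3% as higher and 11.0% as lower with AG636. With library size alone in place of TMM scaling, 1483 genes were called higher and 913 lower, against 1146 and 1222. The higher calls numbered 524, 500.0, 605 and 399 without vehicle replicate 1, vehicle replicate 2, AG636 replicate 1 and AG636 replicate 3, and the lower calls 701, 692, 630.0 and 452. Without vehicle replicate 3 there were 1013 higher and 1298 lower calls, and without AG636 replicate 2 there were 1074 and 1171. Of the markers of the sort, *Kit* was present at 38.6 ± 6.03 CPM in vehicle mice and 42.8 ± 4.80 in AG636 mice (SD, n = 3). *Itgam*, which encodes CD11b, had 19.1 ± 7.45 and 44.2 ± 14.6 CPM (SD, n = 3; log2 fold change 1.21, adjusted p = 0.0219 from edgeR). Its adjusted p from edgeR was between 0.0530 and 0.0814 without vehicle replicate 1 or 2 or AG636 replicate 1 or 3.

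*Txnip* and *Arrdc4* rose with AG636, and these were 2 of the 6 genes. Of all genes tested 10.3% were called higher and 21.3% in either direction. *Mlxip*, *Arrdc1* and *Arrdc3* had higher means and *Arrdc2* a lower mean, none past the threshold. By edgeR 0 of the 6 were called lower, as with DESeq2 and limma-voom. At an unadjusted p under 0.05 from edgeR, 1 of the 6 was lower and 3 were higher. Of all 11092 genes 2041 were lower and 2071 higher at that p. The median log2 fold change of the 6 genes was 0.46, against 0.03 for all 11092 genes. For 4 of the 6 genes the samples of one group all lay on the same side of the other group, as for 41.1% of all genes. Of these, *Txnip*, *Arrdc4* and *Mlxip* were above vehicle in every AG636 sample, as were 20.5% of all genes, and *Arrdc2* was below, as were 20.6%.

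**Figure D2:**
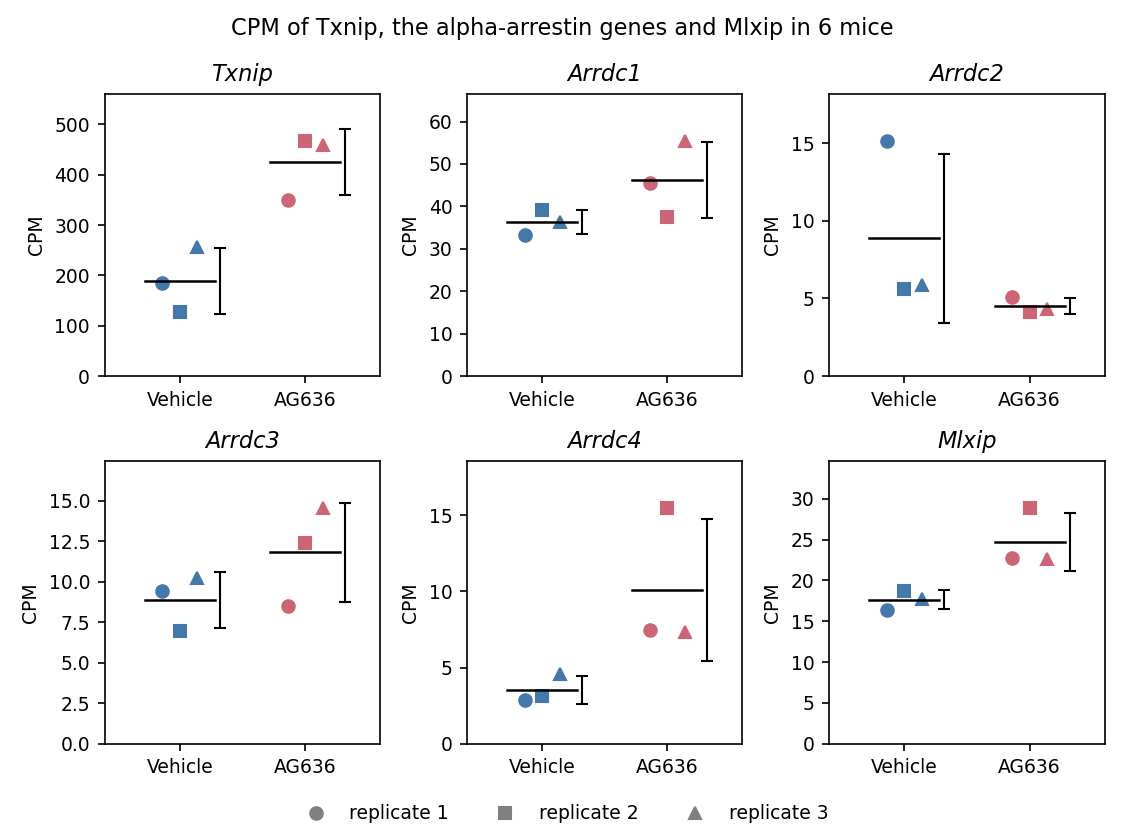
CPM of each gene in the 3 vehicle and 3 AG636 samples, on linear axes that start at 0 and differ between panels. Points are mice, with shapes for replicate numbers, which the main test did not use as pairs. Horizontal lines are means and bars are SD. *Txnip*, *Arrdc4* and *Mlxip* lie above every vehicle sample in all 3 AG636 samples, and vehicle replicate 1 stands apart for *Arrdc2*.

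*Txnip* (ENSMUSG00000038393), on chromosome 3 from 96557957 to 96561883 of GRCm38, was at 185, 127 and 256 CPM in vehicle replicates 1 to 3 and at 350.0, 468 and 458 CPM in the AG636 replicates. Every AG636 sample was above every vehicle sample, and the levels varied 2.02-fold among vehicle mice and 1.34-fold among AG636 mice. The level rose 2.25-fold, from 189 ± 64.8 to 425 ± 65.3 CPM (SD, n = 3; log2 fold change 1.17, standard error 0.23, adjusted p = 0.00890 from edgeR). Its increase ranked at place 389 of 11092 genes, above that of 96.5% of them. The groups rest on 3230 and 6343 counts, so counting error is small beside the spread between mice. An exact two-sided permutation test gave p = 0.1, the smallest that 3 mice against 3 allow. The log2 fold change stayed between 0.94 and 1.43 when any 1 mouse was left out, with adjusted p from 0.00543 to 0.0354 in edgeR. Exons of *Txnip* overlap the antisense gene *Gm15441* over 606 bases, to which 30 reads were assigned in all, against 9573 for *Txnip*. The strand setting of the counting is not given, so these numbers do not show how reads of the shared bases were treated.

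*Arrdc4* (ENSMUSG00000042659), an alpha-arrestin that is induced by sugar alongside *Txnip* and acts on glucose transporters, lies on chromosome 7 from 68736995 to 68749241. It was at 2.85, 3.14 and 4.60 CPM in the vehicle replicates and at 7.43, 15.5 and 7.36 CPM in the AG636 replicates. All 3 AG636 samples were above the vehicle samples, and AG636 replicate 2 was the highest. These levels rest on 16, 24 and 22 counts with vehicle and on 35, 75 and 39 counts with AG636. The level rose 2.88-fold, from 3.53 ± 0.935 to 10.1 ± 4.66 CPM (SD, n = 3; log2 fold change 1.52, standard error 0.37, adjusted p = 0.0200 from edgeR). An exact two-sided permutation test gave p = 0.1. Without vehicle replicate 1 the adjusted p from edgeR was 0.0554 and without vehicle replicate 2 it was 0.0752, while the log2 fold change was 1.38 and 1.43.

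Transcripts of mature granulocytes moved in the same direction as *Txnip* and *Arrdc4*. All 9 genes of a list of granulocyte markers were higher with AG636. Of them 7 passed the threshold, against 10.3% of all genes called higher, and 4 did without vehicle replicate 1. Their summed level was 1036, 2108 and 2367 CPM in vehicle replicates 1 to 3 and 5888, 3124 and 2888 CPM in the AG636 replicates. Most of this sum came from *S100a8* and *S100a9*, at 3150.0 and 2158 CPM in AG636 replicate 1. *Ly6g*, a defining surface marker of granulocytes, was at 1.6, 1.44 and 1.88 CPM in the vehicle replicates and at 3.40, 6.39 and 5.10 CPM in the AG636 replicates. Within the AG636 group the sum, *S100a8*, *S100a9*, *Ltf*, *Ngp* and *Cxcr2* were highest in replicate 1, where *Txnip* was lowest. *Ly6g*, *Camp*, *Retnlg* and *Mmp8* were highest in replicate 2, where *Txnip* was highest. Within the vehicle group the sum and *Txnip* were highest in replicate 3, and so were *Ly6g*, *Mmp8*, *S100a8*, *S100a9* and *Cxcr2*. *Camp*, *Ltf*, *Ngp* and *Retnlg* were highest in vehicle replicate 2, where *Txnip* was lowest. Of 7 monocyte and macrophage markers, 2 were called higher, and 1 was without any single mouse other than AG636 replicate 2. Their summed level was 83.6 to 126 CPM with vehicle and 176 to 253 CPM with AG636. Of 8 genes chosen for the sort and for immature myeloid cells, 3 were called higher, *Itgam*, *Ptprc* and *Cd33*, against 10.3% of all genes. Without AG636 replicate 3 the number called was 1. *Kit*, *Cd34*, *Elane*, *Spi1* and *Mpo* were not called, with log2 fold changes of 0.15, 0.45, 1.05, 0.67 and -0.65. Of 9 lymphocyte markers, 1 passed the filter on low counts, *Nkg7*, and it was not called (adjusted p = 0.166 from edgeR). *Nkg7*, a gene of cytotoxic granules, was at 191 to 493 CPM, while 5 of the 9 were below 1 CPM in every sample and *Il7r* had the highest level of the rest, up to 1.65 CPM. The part of mature cells in the rise of *Txnip* and *Arrdc4* was not tested, and in bulk samples more cells of a type cannot be told apart from more RNA per cell.

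*Mlxip* (ENSMUSG00000038342), on chromosome 5 from 123394798 to 123457932, was at 16.4, 18.7 and 17.8 CPM in the vehicle replicates and at 22.7, 28.9 and 22.7 CPM in the AG636 replicates. The groups did not overlap, and the vehicle samples lay within 1.14-fold of each other. The mean was 17.6 ± 1.16 CPM in vehicle mice and 24.7 ± 3.57 in AG636 mice (SD, n = 3). The log2 fold change of 0.49 (standard error 0.18, interval at 95% from 0.08 to 0.89) had an unadjusted p of 0.0223 and an adjusted p of 0.0789 from edgeR, and it was not called. With library size alone the adjusted p from edgeR was 0.0478 and the log2 fold change 0.58. Exons of *Mlxip* overlap the antisense gene *Gm15747*, to which 4 reads were assigned, against 687 for *Mlxip*. How reads of the shared bases were treated is not known here either.

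*Arrdc1* (ENSMUSG00000026972), whose product drives budding of vesicles from the plasma membrane, lies on chromosome 2 from 24925352 to 24935252. It was at 33.3, 39.1 and 36.4 CPM in the vehicle replicates and at 45.5, 37.5 and 55.5 CPM in the AG636 replicates. The groups overlapped through AG636 replicate 2. The log2 fold change was 0.35 (standard error 0.17, interval at 95% from -0.04 to 0.73, adjusted p = 0.176 from edgeR). *Arrdc3* (ENSMUSG00000074794), which directs adrenergic receptors and integrins to degradation, lies on chromosome 13 from 80883384 to 80896042. Its vehicle replicates were at 9.45, 6.93 and 10.2 CPM and its AG636 replicates at 8.50, 12.4 and 14.5 CPM. Here AG636 replicate 1 fell among the vehicle samples. The log2 fold change was 0.43 (standard error 0.27, interval at 95% from -0.18 to 1.03, adjusted p = 0.284 from edgeR).

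*Arrdc2* (ENSMUSG00000002910), on chromosome 8 from 70835129 to 70839720, was the 1 gene of the 6 with a lower mean. It was at 15.2, 5.62 and 5.85 CPM in the vehicle replicates and at 5.10, 4.12 and 4.34 CPM in the AG636 replicates. Vehicle replicate 1 was 2.69-fold above vehicle replicate 2, while the other vehicle samples were close to the AG636 samples, although the groups did not overlap. The log2 fold change was -0.97 (standard error 0.41, interval at 95% from -1.88 to -0.05, adjusted p = 0.117 from edgeR). Without vehicle replicate 1 it was -0.36 with an adjusted p of 0.514 from edgeR, and with no filter on low counts the adjusted p was 0.0260. The summed level of 7 erythroid markers was also highest in vehicle replicate 1, at 3364 CPM, against 1279.6 and 2121 in the other vehicle samples and 1614 to 2615 with AG636. Of these markers 2 were called lower with AG636, against 0 without AG636 replicate 1 or 3, 1 without vehicle replicate 1 or 2 and 4 without vehicle replicate 3. Their part in the *Arrdc2* value was not tested.

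**Figure D3:**
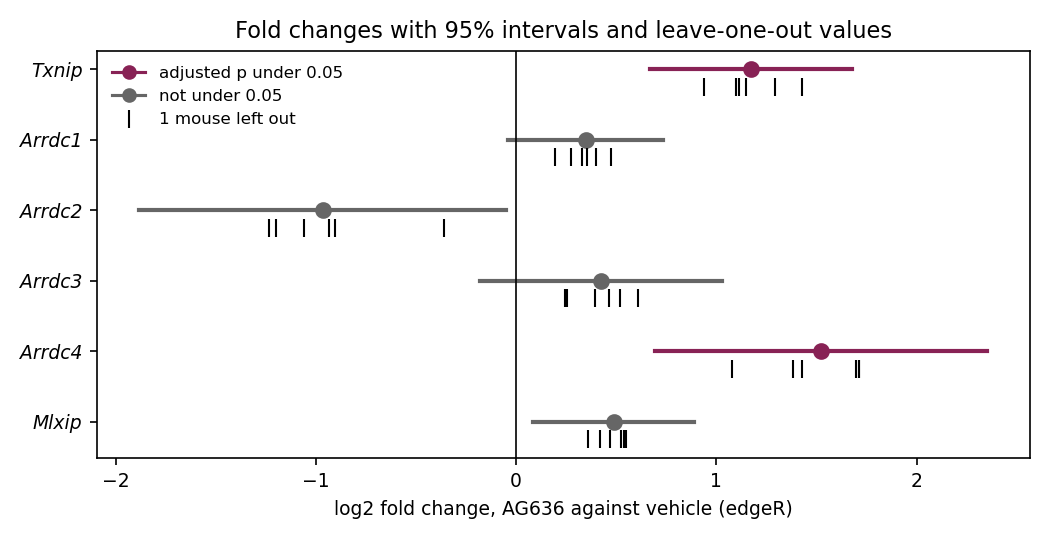
Log2 fold change of AG636 against vehicle for the 6 genes from edgeR, with lines for the interval at 95% and ticks for the 6 values that each leave out 1 mouse. *Txnip* and *Arrdc4*, in purple, lie above 0 throughout, and so does *Mlxip*, which was not called. The value of *Arrdc2* moves from -0.97 to -0.36 without vehicle replicate 1.

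The dimerization partner of MondoA did not pass the test. *Mlx*, the obligate partner, averaged 44.9 ± 7.59 CPM in vehicle mice and 42.5 ± 11.3 in AG636 mice (SD, n = 3). Its log2 fold change was -0.08 (interval at 95% from -0.55 to 0.40, adjusted p = 0.823 from edgeR), and it was 0.011 with library size alone, 0.028 without vehicle replicate 3 and 0.11 without AG636 replicate 2. *Mlxipl*, the ChREBP gene, did not pass the filter on low counts, with at most 0.535 CPM in a sample. Some other members of the MAX and MLX network did rise. Of the 10 genes tested in this list 5 were called higher, against 10.3% of all genes, namely *Mxd1*, *Mxi1*, *Mxd3*, *Mxd4* and *Mycn*. The log2 fold change was below 0 for 4 of the 10, and the median was 0.27. *Mxd4*, a repressor that shares E-boxes with MYC, went from 62.0 ± 11.6 to 140.1 ± 39.8 CPM and *Mxd1* from 24.1 ± 0.659 to 43.2 ± 4.0 CPM (SD, n = 3; log2 fold changes 1.17 and 0.84, adjusted p = 0.00678 and 0.00685 from edgeR). The number called was 2 without vehicle replicate 2 or AG636 replicate 3 and 3 without vehicle replicate 1 or AG636 replicate 1.

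Among glucose transporter and hexokinase genes 1 of 11 was called, *Slc2a9*, a urate and hexose transporter gene, which rose from 5.61 ± 1.31 to 19.2 ± 2.55 CPM (SD, n = 3; log2 fold change 1.79, adjusted p = 0.00303 from edgeR). *Slc2a1*, the gene of the transporter GLUT1 that TXNIP acts on, had 20.2 ± 6.22 and 19.9 ± 4.02 CPM, with a log2 fold change of -0.02 (interval at 95% from -0.57 to 0.53), 0.065 with library size alone, 0.023 with limma-voom, and 0.23, 0.10 and 0.010 without vehicle replicate 3, AG636 replicate 2 and AG636 replicate 3. *Slc2a3* had a log2 fold change of 0.40 and *Hk2* one of -0.18 (adjusted p = 0.129 and 0.637 from edgeR), and *Hk2* was at 0.021 without vehicle replicate 3 and at 0.0055 without AG636 replicate 2. In the thioredoxin system 5 of 12 genes were called lower and 2 higher, against 11.0% and 10.3% of all genes. The median log2 fold change of this list was -0.56. *Txn1*, which encodes the thioredoxin that TXNIP binds, had 514 ± 98.7 and 575 ± 79.6 CPM (SD, n = 3; log2 fold change 0.16, adjusted p = 0.492 from edgeR). Mitochondrial *Txn2* fell from 218 ± 36.0 to 139 ± 3.36 CPM and the peroxiredoxin gene *Prdx6* from 601 ± 99.4 to 353 ± 57.7 CPM (SD, n = 3; adjusted p = 0.0126 and 0.0114 from edgeR). The count of lower genes in this list was 2 without vehicle replicate 1, AG636 replicate 1 or AG636 replicate 3, and the count of higher genes was 0 without vehicle replicate 1 or 2 or AG636 replicate 3 and 1 without AG636 replicate 1 or 2.

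Of the NEDD4-family ligases and their adaptors, edgeR called 0 of 9, as did DESeq2 and limma-voom. At an unadjusted p under 0.05 from edgeR, 3 were higher and 0 lower, against 2071 and 2041 of all 11092 genes. The median log2 fold change of this list was 0.33. *Pdcd6ip*, the ALIX gene, was the 1 of 5 ESCRT partners of ARRDC1 tested that was called, at 79.1 ± 14.9 and 126 ± 5.38 CPM (SD, n = 3; adjusted p = 0.0136 from edgeR). Its adjusted p from edgeR was 0.0556 without vehicle replicate 2 and 0.0532 without AG636 replicate 3. *Hgs*, also in this list, had 0 counts under the identifier used and was not tested. Of 6 other genes with an arrestin fold, *Arrb2* was called higher and *Arrb1* lower. *Arrb2* had 239 ± 63.4 and 405 ± 84.4 CPM and *Arrb1* had 172 ± 40.0 and 109 ± 14.9 CPM (SD, n = 3; adjusted p = 0.0303 and 0.0299 from edgeR). For *Arrb2* the adjusted p from edgeR was 0.0554 to 0.0727 without vehicle replicate 1 or 2 or AG636 replicate 2 or 3, and for *Arrb1* it was 0.0546 to 0.104 without any single mouse other than vehicle replicate 3. *Arrdc5*, the remaining alpha-arrestin gene, had 0 counts in all 6 samples.

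Genes that share other known regulators with *Txnip* were also counted, since FOXO factors and glucocorticoids act on it as well. These lists were written by hand with earlier results of these data known, so their counts are a description and not independent of the data. Of 16 FOXO target genes 7 were called higher, against 10.3% of all genes, and their median log2 fold change was 0.68. *Pik3ip1*, an inhibitor of PI3K, rose from 19.8 ± 3.41 to 52.4 ± 4.93 CPM and *Sesn3*, a sestrin, from 4.30 ± 0.807 to 10.8 ± 1.05 CPM (SD, n = 3; log2 fold changes 1.41 and 1.33, adjusted p = 0.00247 and 0.00899 from edgeR). *Ccng2*, *Sesn1*, *Ypel3*, *Cited2* and *Btg1* were the others, and the adjusted p of *Cited2* was 0.0751 without vehicle replicate 2. Of 10 glucocorticoid-responsive genes 2 were called higher, against 10.3% of all genes, and the median of the 10 was 0.55. These were *Tsc22d3*, at 19.8 ± 3.59 and 42.0 ± 11.8 CPM, and *Ddit4*, an inhibitor of mTORC1, at 20.6 ± 9.15 and 69.2 ± 10.6 CPM (SD, n = 3; adjusted p = 0.0120 and 0.00521 from edgeR). At an unadjusted p under 0.05 from edgeR, 5 of the 10 glucocorticoid-responsive genes were higher and 2 lower. Of all 11092 genes 2071 were higher and 2041 lower at that p. No list was tested as a set, and which regulator acts on *Txnip* in these cells was not measured.

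**Figure D4:**
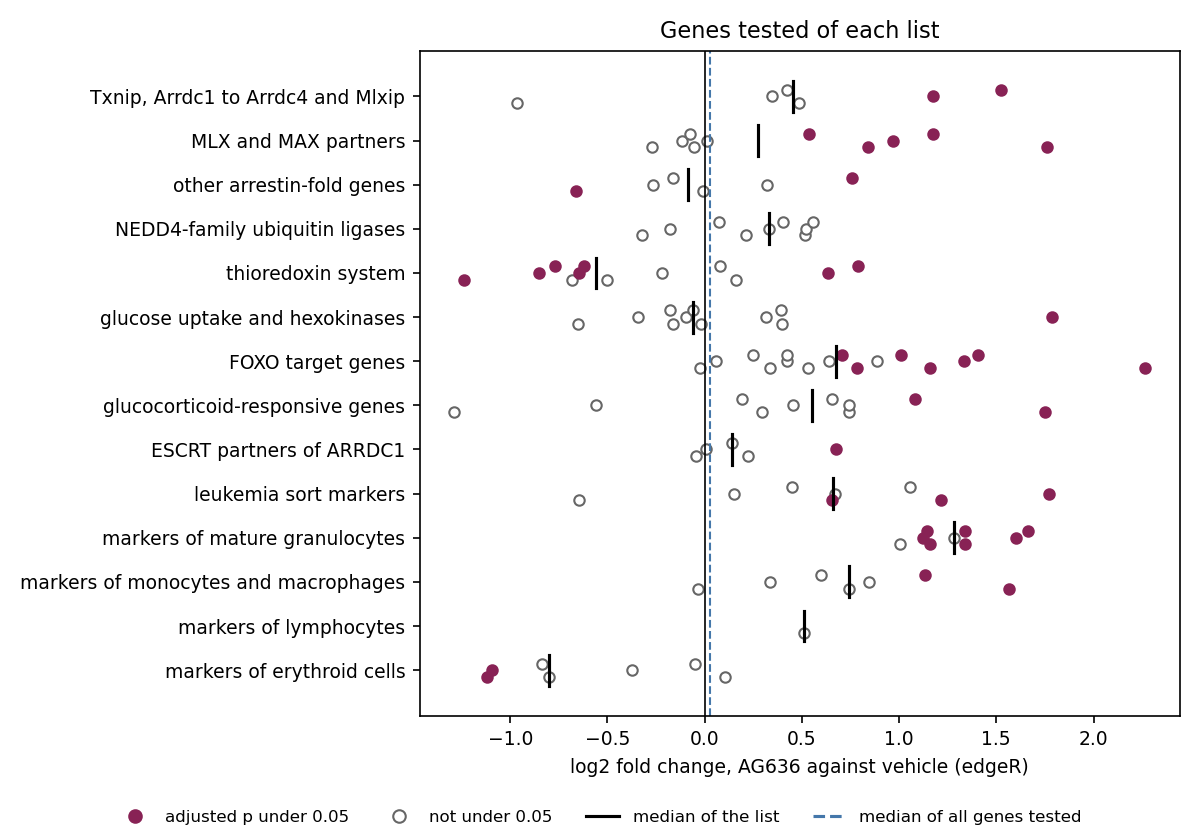
Log2 fold change from edgeR of each gene tested in the 6 genes and in 13 context and marker lists. Filled points are genes called at an adjusted p under 0.05, open points are not called, black bars are list medians and the dashed line is the median of all genes tested, 0.03. FOXO target genes and markers of mature granulocytes lie mostly above 0, with medians of 0.68 and 1.28.

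Across the 6 samples the log2 CPM of *Txnip* went most closely with *Polk*, which encodes a translesion DNA polymerase (Pearson's r = 0.993). It was followed by *Ppp3cc*, a calcineurin subunit gene, *Fry*, *P2rx7*, the gene of an ATP-gated channel, and *Dnajc6*, the auxilin gene, with r from 0.989 to 0.991. Their log2 fold changes ranged from 0.49 to 1.72. Within the 6 genes, r with *Txnip* was 0.887 for *Arrdc4*, 0.824 for *Arrdc3*, 0.788 for *Mlxip*, 0.542 for *Arrdc1* and -0.573 for *Arrdc2*. The 6 points are 2 groups of 3 from the same libraries, so these values describe likeness over these samples only.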

How the data were processed

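RNA from sorted I1DN cells of 3 vehicle-treated and 3 AG636-treated mice was sequenced with the QuantSeq 3′ mRNA kit. The authors deposited raw counts per gene, made by trimming with cutadapt, mapping to mm10 (GRCm38) with HISAT2 and counting with the Subread package. The submitters' processing notes name cutadapt 1.9.1, HISAT2 2.0.4 and Subread 1.5.0-p3, and the methods name other versions of cutadapt and subread. The strand setting, the treatment of multi-mapping reads and any molecular identifiers are not given in the sources used here, so counting intervals and floors cover counting error only. The exon length of each gene in the deposited table was not used to scale values. All 6 columns of samples were used and 0 were left out.

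Symbols came from GENCODE for 54723 of 54838 identifiers. Of the symbols in the lists 1 had several identifiers, and the first was used. Counts were tested in R 4.3.3 with edgeR 4.0.16: filterByExpr (minimum count 10, minimum total 15), TMM scaling and the quasi-likelihood test, with Benjamini-Hochberg adjustment over 11092 genes. The standard error is the size of the log2 fold change divided by the square root of F, and intervals at 95% use the degrees of freedom of that test. Correlations use log2 CPM with a prior count of 2. The scripts were tested on simulated data. Alternatives were DESeq2 1.42.0, limma-voom (limma 3.58.1, the package of the study), median-of-ratios factors, library size alone, a replicate block, no filter, a floor of 10 counts per sample, thinning to the smallest total, leaving out each mouse and an adjusted p under 0.01. P-values measure the spread between recipient mice. The study's methods describe engraftment with banked cells of a moribund mouse, so spread between separately derived leukemias may not be covered. Replicate pairs differed by more than sampling noise (chi-square per degree of freedom from 6.67 to 15.6).

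The 6 genes and the 13 context and marker lists were chosen with earlier results of these data known. The text names the 6 genes, the genes of the lists that were called, fixed partners (*Mlx*, *Mlxipl*, *Arrdc5*, *Txn1*, *Slc2a1*, *Slc2a3*, *Hk2*) and the 5 genes most like *Txnip*. *Kit*, *Cd34*, *Elane*, *Spi1*, *Mpo*, *Hgs*, *Nkg7*, *Il7r* and the granulocyte markers *Mmp8* and *S100a8*, which were not called, were named after their values were seen. Promoter windows from RefSeq matched all 6 genes with 8 windows. Proteins were not used here.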

Additional observations from a re-analysis of the deposited data

How the results depend on the processing

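*Txnip* was called higher under every alternative run, with log2 fold changes from 0.94 to 1.43. *Arrdc4* was higher throughout, from 1.08 to 1.71 when 1 mouse was left out, but its 1.52 did not pass an adjusted p under 0.01. *Mlxip* passed only with library size alone (0.58) and *Arrdc2* only with no filter on low counts (-0.99). Library size alone moved the median of all genes by 0.09. Leaving out 1 mouse gave *Mlx* values from -0.27 to 0.11, *Slc2a1* from -0.19 to 0.23 and *Hk2* from -0.43 to 0.021. *Mlx* was at 0.011 and *Slc2a1* at 0.065 with library size alone, and *Slc2a1* at 0.023 with limma-voom. The causes were not tested.

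Counts of called genes depended more on the setting. At an adjusted p under 0.01 they were 1 of the 6 genes, 2 MLX and MAX partners, 0 other arrestin-fold genes in either direction, 0 thioredoxin genes in either direction, 1 glucocorticoid-responsive gene, 0 ESCRT partners, 1 sort marker, 3 granulocyte, 1 monocyte and 0 erythroid markers, and 231 higher and 325 lower genes in all. With no filter they were 1 lower among the 6 genes, 4 higher and 2 lower glucocorticoid-responsive genes, 6 higher and 1 lower sort marker, 1 lymphocyte marker and 5 lower erythroid markers. With library size alone 3 of the 6 genes and 1 NEDD4-family gene were higher and 3 thioredoxin genes lower. DESeq2 gave 1 lower glucocorticoid-responsive gene and limma-voom 1 monocyte marker.

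The main test did not use the replicate numbers as pairs. Deviations of same-numbered samples correlated at -0.06, -0.18 and 0.22, and those of differently numbered samples at -0.38 to 0.36. With 3 mice a group these values cannot decide whether the numbers pair the mice. With a replicate block *Txnip* was at 1.21 and *Arrdc4* at 1.48, both called, and 914 genes were higher and 1046 lower. The block gave 0 lower other arrestin-fold genes, 1 higher thioredoxin gene and 1 monocyte marker.

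Without 1 mouse the higher calls were 1 to 2 of the 6 genes, 2 to 5 MLX and MAX partners, 0 to 1 other arrestin-fold genes, 0 to 2 thioredoxin genes, 0 to 1 ESCRT partners, 1 to 4 sort markers, 4 to 7 granulocyte, 1 to 2 monocyte and 0 to 1 lymphocyte markers, and 399 to 1074 genes in all. The lower calls were 0 to 1 other arrestin-fold, glucose uptake and glucocorticoid-responsive genes each, 2 to 6 thioredoxin genes, 0 to 4 erythroid markers and 452 to 1298 genes in all. With 3 mice a group, changes as small as that of *Mlxip* were at the limit of the test, and *Arrdc2* and *Arrdc4* rest on 223 and 211 counts.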
